A study of Mus musculus with 22 samples.

Results

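The genes described here are 37 markers of brain endothelial cells and the blood-brain barrier, chosen by name with earlier results of these data known. Of these, 36 had a probe with a gene symbol on the array and Ly6a was not analysed here, so 36 of 22485 genes with a named probe are reported. Each gene is represented by its probe with the highest mean over all 22 samples, and 11 of the 36 genes had more than 1 probe.

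Transcripts were measured on 11 two-colour arrays in glia sorted from the cortex of C57BL/6 mice aged 15 to 18 months. The APP/PS1 mice (APPswe/PS1dE9) carry a mutant human amyloid precursor protein and a mutant presenilin 1, both driven by the mouse prion protein promoter, and their WT littermates carry neither. Astrocytes were taken as GLT1-positive, CD11b-negative cells (4 APP/PS1 and 4 WT samples) and microglia as CD11b-positive, CD45-positive cells (7 and 7), in each case after removal of myelin and of O4-positive cells. No endothelial marker was part of the sort, and on every array an APP/PS1 sample was paired with the equally numbered WT sample in the other dye.

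Endothelial cells line the vessels of the brain, and there they are sealed to each other by tight junctions, take up little by vesicles and rely on dedicated transporters to move nutrients in and drugs out. This barrier state is induced and kept by Wnt signals from neural cells, read by frizzled receptors and transcription factors such as Lef1, on top of a general endothelial programme driven by ETS factors (Erg, Fli1) and SOXF factors (Sox7, Sox17, Sox18). Astrocyte endfeet wrap the vessels, and perivascular macrophages and mural cells lie against the same wall.

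Promoter sequences were available from RefSeq for 22 of the 36 genes, each covering 250 bases before to 50 bases after the start. The core of the ETS motif (AGGAAG or CGGAAG, either strand) was found in 13 of the 22, or 59.1%, against 46.4% of 27025 mouse promoters of the same length. The SOX core (ACAATG or ACAAAG) stood in 22.7% against 28.8%, the TCF/LEF core (CTTTGA) in 22.7% against 16.2%, and the forkhead core (TAAACA) in 22.7% against 13.4%, again on either strand and with no overlap between the letters of different motifs required or removed. A match is a description of letters and not evidence of binding. Printed here are the promoters of the genes on which the results turn and which the table held: Cldn5 as the best known barrier gene, Flt1 and Ctla2a as genes higher in both cell types, Eng as a gene of opposite change, and Mfsd2a as a gene that fell in astrocyte samples. All are from GRCm38.p6, written 5′ to 3′ along the gene's strand, with the motif letters in capitals.
Cldn5, chr16:18776597-18776896, plus strand, none of the motif letters: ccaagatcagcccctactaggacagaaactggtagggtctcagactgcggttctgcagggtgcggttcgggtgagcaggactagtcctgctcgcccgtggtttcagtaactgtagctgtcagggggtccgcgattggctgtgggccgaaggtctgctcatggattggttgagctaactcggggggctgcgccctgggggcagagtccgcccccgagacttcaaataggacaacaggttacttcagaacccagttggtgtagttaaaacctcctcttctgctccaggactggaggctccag
Flt1, chr5:147725962-147726261, minus strand, 2 ETS cores: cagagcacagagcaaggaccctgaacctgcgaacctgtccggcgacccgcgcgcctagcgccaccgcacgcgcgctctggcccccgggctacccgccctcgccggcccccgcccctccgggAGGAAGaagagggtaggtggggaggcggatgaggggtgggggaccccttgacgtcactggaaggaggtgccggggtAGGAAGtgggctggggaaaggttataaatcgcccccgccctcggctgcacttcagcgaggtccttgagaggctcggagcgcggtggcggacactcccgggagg
Ctla2a, chr13:60936576-60936875, minus strand, 1 ETS core: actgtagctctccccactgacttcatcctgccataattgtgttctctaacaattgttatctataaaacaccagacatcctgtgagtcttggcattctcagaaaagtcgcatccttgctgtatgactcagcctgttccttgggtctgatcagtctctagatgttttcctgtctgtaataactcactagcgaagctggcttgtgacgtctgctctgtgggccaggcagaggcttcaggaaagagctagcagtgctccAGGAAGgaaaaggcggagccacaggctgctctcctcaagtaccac
Eng, chr2:32646345-32646644, plus strand, 2 ETS cores and 1 SOX core: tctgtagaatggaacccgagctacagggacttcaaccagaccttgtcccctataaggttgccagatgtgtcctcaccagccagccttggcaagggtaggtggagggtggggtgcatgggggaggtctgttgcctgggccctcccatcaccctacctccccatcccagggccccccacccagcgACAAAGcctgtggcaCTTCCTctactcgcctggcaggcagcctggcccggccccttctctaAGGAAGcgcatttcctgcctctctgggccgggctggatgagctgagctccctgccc
Mfsd2a, chr4:122961139-122961438, minus strand, 1 TCF/LEF core: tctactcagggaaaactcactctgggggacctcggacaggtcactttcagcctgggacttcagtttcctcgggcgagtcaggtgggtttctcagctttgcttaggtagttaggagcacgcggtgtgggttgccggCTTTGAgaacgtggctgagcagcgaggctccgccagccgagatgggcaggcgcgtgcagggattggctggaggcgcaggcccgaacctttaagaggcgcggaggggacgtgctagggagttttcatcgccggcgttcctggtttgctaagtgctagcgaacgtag

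The endothelial transcripts were mostly measured in the astrocyte samples. All levels are the deposited log2 values, which ran from -0.95 to 17.89 in the table, and a level is compared only with the same probe in other samples. Between WT samples, 31 of the 36 genes were higher in astrocytes than in microglia and 2 were lower (limma with array as a random block, Benjamini-Hochberg adjusted p under 0.05), where 35.3% of all genes were called higher and 18.0% lower. For the same 31 genes every WT astrocyte sample lay above every WT microglia sample, and for Kdr and Fli1 every one lay below; over all genes measured on all arrays these shares were 32.3% and 18.1%. Since 1 slide carried every astrocyte array, the cell type cannot be told apart from the slide.

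**Figure D1:**
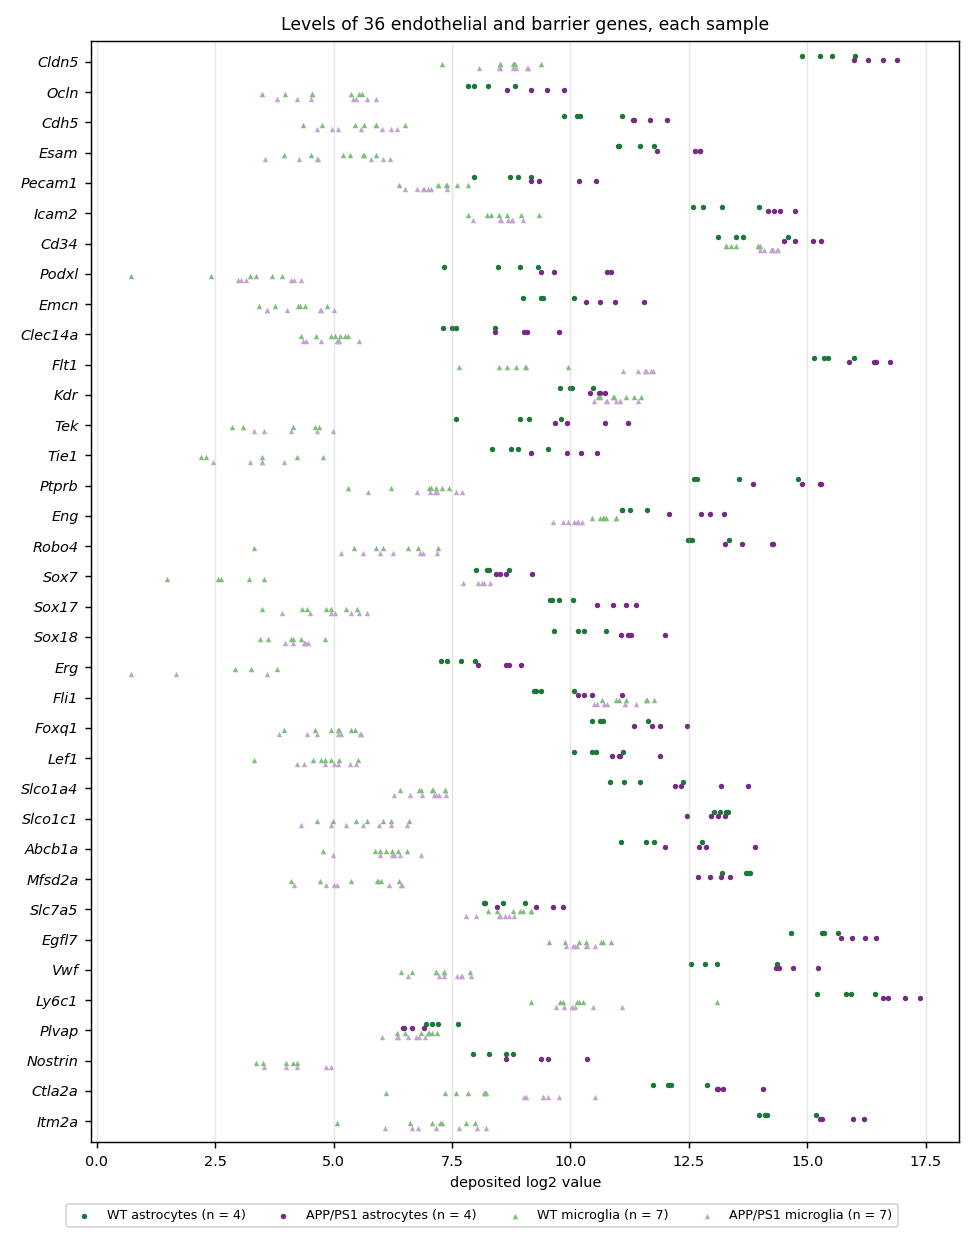
Deposited log2 value (horizontal axis) of each of the 36 genes in every sample, with circles for astrocyte samples and triangles for microglia samples, darker for astrocytes and green for WT against purple for APP/PS1. Most genes form 2 separate clouds, with Cldn5 between 14.88 and 16.89 in astrocyte samples and between 7.30 and 9.38 in microglia samples, while Cd34, Kdr, Fli1, Slc7a5 and Plvap do not, and the APP/PS1 microglia values of Sox7 lie among the astrocyte ones.

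Claudin-5 (Cldn5) is the main sealing protein of the brain's tight junctions. Its level in WT astrocyte samples 1 to 4 was 16.02, 15.27, 15.52 and 14.88, and in the 7 WT microglia samples it ran from 7.30 through a median of 8.78 to 9.38. The difference was 6.83 ± 0.37 (log2, SE; adjusted p = 2.45e-12), a 114-fold difference. The lipid transporter Mfsd2a differed most, by 8.13 ± 0.39, with 13.62 ± 0.29 (SD, n = 4) in WT astrocytes and 5.49 ± 0.81 (n = 7) in WT microglia. The thyroid hormone transporter Slco1c1, which astrocytes also make, differed by 7.54 ± 0.42, the membrane protein Itm2a by 7.36 ± 0.52 and the guidance receptor Robo4 by 6.84 ± 0.59.

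The order did not hold for 5 of the 36 genes. Fli1, an ETS factor that blood cells also use, was lower in WT astrocytes (9.49 ± 0.40) than in WT microglia (11.26 ± 0.40), by 1.75 ± 0.25 on the log2 scale. Cd34, a sialomucin of endothelium and blood progenitors, stood at 13.72 ± 0.63 and 13.63 ± 0.34 and its difference of 0.10 (SE 0.33) did not pass the test. The amino acid transporter Slc7a5 (difference -0.33, SE 0.29) and the diaphragm protein Plvap, a mark of leaky rather than barrier vessels (0.37, SE 0.20), did not pass either. Kdr, the main signalling receptor for VEGF-A, depended on the probe: the brightest of its 11 probes was lower in WT astrocytes by 0.94 on the log2 scale, whereas the other 10 were higher by 3.58 to 4.04. Averaging all probes of a gene turned Kdr to 3.43 and Slc7a5 to 1.09, both higher in astrocytes.

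The labelled cell types were checked on marker lists, each summed over its genes on the linear scale and given as log2. The 12 astrocyte markers summed to between 18.96 and 19.10 in WT astrocyte samples, 16.62 and 18.62 in APP/PS1 astrocyte samples, and 11.41 and 12.77 in microglia samples. The 14 microglia markers summed to between 19.20 and 19.96 in microglia samples and 13.83 and 15.55 in astrocyte samples. The 12 mural markers (pericytes and smooth muscle), such as Tagln and Acta2, summed to between 15.11 and 17.94 in WT and 17.70 and 19.37 in APP/PS1 astrocyte samples, against 9.47 to 11.41 in microglia samples. The 36 endothelial genes summed to between 17.79 and 18.85 in WT and 18.89 and 19.60 in APP/PS1 astrocyte samples, which do not overlap.

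In astrocyte samples, 29 of the 36 endothelial genes were higher in APP/PS1 than in WT, 2 were lower and 5 did not pass the test (limma, adjusted p over all genes). Over all genes 15.4% were called higher and 18.0% lower. The median difference of the 36 was 1.11 on the log2 scale, or 2.16-fold, against -0.07 over all genes tested. In a sorted bulk sample, more cells of a type and more RNA per cell cannot be told apart. Positive differences on all 4 arrays were seen for 28 genes, against 19.0% of all genes, and for 14 genes every APP/PS1 sample lay above every WT sample, against 6.37%. These counts rest on a spread shared between both cell types: fitted on the astrocyte arrays alone, 3 genes (Esam, Emcn and Eng) were called higher and none lower, with 30 and 2 at an unadjusted p under 0.05. Over all 22461 genes tested in that fit, 1476 were called higher and 1343 lower (3746 and 4277 unadjusted). Without the array block 13 were called higher and none lower (29 and 1 unadjusted). Over all 22483 genes that setting gave 1387 higher and 1060 lower (2755 and 2557 unadjusted). Leaving out replicate 2 gave 14 higher (2670 of 22475 over all genes) and leaving out replicate 4 gave 15 (2934 of 22471).

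**Figure D2:**
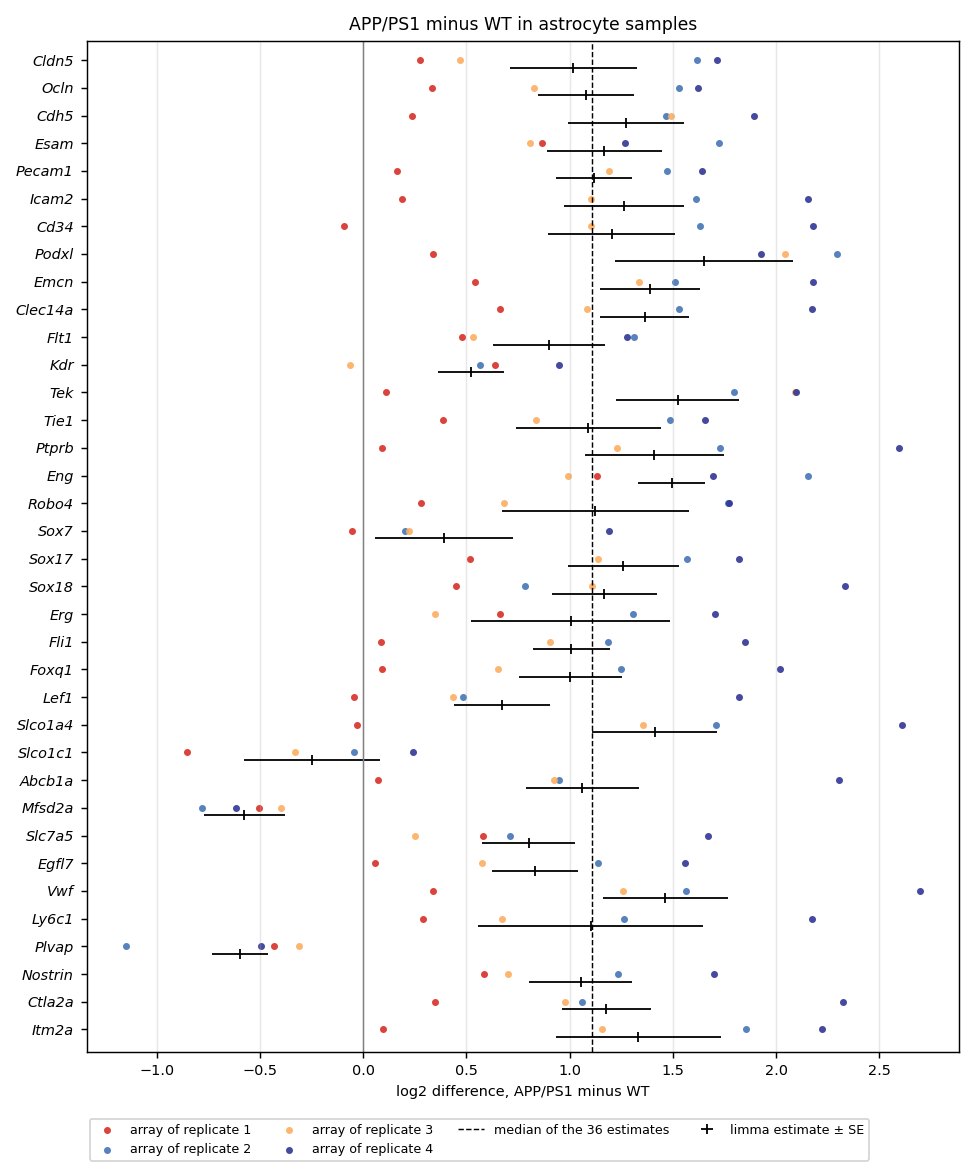
APP/PS1 minus WT (log2, horizontal axis) for each gene on each of the 4 astrocyte arrays (coloured points), with the limma estimate and its SE in black and the median of the 36 estimates, 1.11, as a dashed line. Red points of replicate 1 lie left and dark blue points of replicate 4 lie right for most genes, and Mfsd2a and Plvap lie below 0 on all 4 arrays.

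All 6 junction and adhesion genes rose, by amounts between 1.02 and 1.27. Cldn5 in APP/PS1 samples 1 to 4 was 16.29, 16.89, 15.99 and 16.59, a mean of 16.44 ± 0.39 against 15.42 ± 0.48 (SD, n = 4 each). The ranges overlapped slightly, and the difference was 1.02 ± 0.31 (SE, adjusted p = 0.0277), with no call when replicate 2 (0.79, adjusted p = 0.139) or replicate 4 (0.76, adjusted p = 0.133) was left out. VE-cadherin (Cdh5), the adherens junction protein of endothelium, went from 11.09, 10.21, 9.86 and 10.14 to 11.32, 11.68, 11.35 and 12.04, with no overlap and a difference of 1.27 ± 0.28. Occludin (Ocln) rose by 1.08 ± 0.23, and the adhesion molecules Esam by 1.17 ± 0.28, Icam2 by 1.26 ± 0.29 and Pecam1 by 1.12 ± 0.18.

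All 4 surface sialomucins and lectins rose too. Podocalyxin (Podxl), an anti-adhesive coat protein of the lumen, gave the largest estimate among all 36 genes, 1.65 ± 0.43, from 8.51 ± 0.86 in WT to 10.16 ± 0.76 in APP/PS1. Endomucin (Emcn) rose by 1.39 ± 0.24, Clec14a by 1.36 ± 0.21 and Cd34 by 1.20 ± 0.31. The second probes of Cd34 (1.12) and Clec14a (1.12) were called as well.

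Of the 7 growth factor receptors and their partners, 6 rose and Robo4 did not pass (1.12 ± 0.45, adjusted p = 0.0844). Endoglin (Eng), a co-receptor for BMP9 and TGF-beta, went from 11.63, 11.08, 11.08 and 11.25 to 12.76, 13.23, 12.07 and 12.94. The 2 groups did not overlap, the difference was 1.49 ± 0.16 (adjusted p = 0.000217), and its 95% interval was the only one to lie wholly above the median of the 36. The angiopoietin receptor Tek rose by 1.52 ± 0.30, its relative Tie1 by 1.09 ± 0.35 and the phosphatase Ptprb, which acts on both, by 1.41 ± 0.34. Flt1, the decoy receptor for VEGF-A, rose by 0.90 ± 0.27, from a mean of 15.47 to 16.37. The brightest Kdr probe rose by 0.52 ± 0.16, and the other 10 by 1.48 to 1.57 with adjusted p of at most 0.00116.

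Among 7 transcription factors, 5 rose. Sox17 rose by 1.26 ± 0.27, Sox18 by 1.17 ± 0.25, Fli1 by 1.01 ± 0.19, the forkhead factor Foxq1 by 1.00 ± 0.25 and Lef1 by 0.67 ± 0.23. Sox7 was 8.69, 8.23, 8.28 and 8.01 in WT and 8.64, 8.43, 8.50 and 9.20 in APP/PS1 samples. Those values overlapped, and neither Sox7 (0.39 ± 0.34, adjusted p = 0.427) nor Erg (1.00 ± 0.48, adjusted p = 0.175) passed the test. Erg was higher on all 4 astrocyte arrays (0.66, 1.30, 0.35 and 1.71), without overlap of the groups. Its SE rests on a spread shared with 3 microglia arrays, where its differences were -1.24, -3.08 and 0.34. The Lef1 call was lost in 11 of the alternatives run and that of Tie1 in 9.

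The transporters were less alike, with an SD of 0.86 among their 5 estimates. The organic anion transporter Slco1a4 rose by 1.41 ± 0.30, the drug efflux pump Abcb1a by 1.06 ± 0.27 and Slc7a5 by 0.80 ± 0.23, while a second Slc7a5 probe (0.46, adjusted p = 0.151) did not pass. Mfsd2a, which carries lysophospholipids inward and restrains vesicle transport across the endothelium, fell by 0.58 on the log2 scale (SE 0.20, adjusted p = 0.0484), from 13.19, 13.72, 13.78 and 13.80 to 12.69, 12.94, 13.38 and 13.18. It was lower on all 4 arrays, against 24.6% of all genes, though its groups overlapped and its call was lost in 15 alternatives. Slco1c1 was 13.20 ± 0.13 in WT and 12.95 ± 0.35 in APP/PS1, a difference of -0.25 ± 0.33 (adjusted p = 0.617). The 12 astrocyte markers had a median difference of -1.37 on the same arrays. The part of astrocyte content in the values of Mfsd2a and Slco1c1 was not tested.

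Among the secreted and remaining genes, von Willebrand factor (Vwf), which tethers platelets, rose by 1.46 ± 0.30 and the matrix protein Egfl7 by 0.83 ± 0.21. Itm2a rose by 1.33 ± 0.40, the protease inhibitor homologue Ctla2a by 1.18 ± 0.21 and the nitric oxide synthase trafficking protein Nostrin by 1.05 ± 0.25. Ly6c1 went from 15.84 ± 0.50 to 16.94 ± 0.35 without overlap, but its difference of 1.10 ± 0.55 did not pass (adjusted p = 0.155), while its second probe did (1.66, adjusted p = 0.0452). The SE of Ly6c1 rests on a spread shared with the microglia arrays, of which array 3 gave -3.24. Ly6c1 and Ctla2a each have a close relative in the mouse genome, and whether their probes tell the copies apart was not tested. Plvap fell by 0.60 on the log2 scale (SE 0.14, adjusted p = 0.00751), from 7.08, 7.63, 7.21 and 6.96 to 6.65, 6.48, 6.90 and 6.46. Every APP/PS1 value lay below every WT value, and Plvap was lower on all 4 arrays, as were 24.6% of all genes measured on all. In microglia samples the same probe ran from 6.03 to 7.17. The second Plvap probe (-0.25, adjusted p = 0.0605) did not pass.

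The changes of the 36 genes were set against a single common amount. The SD of their estimates was 0.53, larger than the median SE of 0.27 of a single estimate, and over all genes the SD was 0.62 with a median SE of 0.16. Of the members, 30 of the 36 estimates lay within 0.5 of the median. The 95% intervals of 31 genes held the median of 1.11, and over all genes, whose intervals were narrower, those of 13209 of 22483 held the median of all genes. The 5 others were Eng above and Kdr (brightest probe), Slco1c1, Mfsd2a and Plvap below. Within the junction genes the SD was 0.10, smaller than the SE of any of them. Each SE includes variation between arrays that the genes share, and the median comes from the same estimates. An SD below the SE, or an interval that holds the median, therefore does not show a common amount. Across the 36 genes the change and the WT astrocyte level gave a Pearson r of 0.01, as a description over genes that share libraries. A further 18 endothelial genes, listed separately from the 36, gave a median of 1.07 with 14 higher and 1 lower, and 17 of their 18 intervals held that list's median. Both lists were chosen with earlier results of these data known, so the second is not an independent check of the first. Between WT samples 12 of the 18 further genes were called higher in astrocytes and 4 lower, against 35.3% and 18.0% of all genes. The 14 microglia markers had a median APP/PS1 minus WT difference of 1.85 in astrocyte samples, and their cells' part in the further genes was not tested.

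The size of the shift differed from array to array. On astrocyte arrays 1 to 4 the median difference of the 36 genes was 0.28, 1.47, 0.87 and 1.82, and that of the 18 further genes was 0.38, 1.31, 0.80 and 1.66. Of the 36 genes, 30 had their largest difference on array 4 and 29 their smallest on array 1. The differences of the genes correlated between arrays with r of 0.34 to 0.80 over the 36 genes, with no p because each array is 1 pair of libraries. Leaving out each array in turn gave medians of 0.88 to 1.36.

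**Figure D3:**
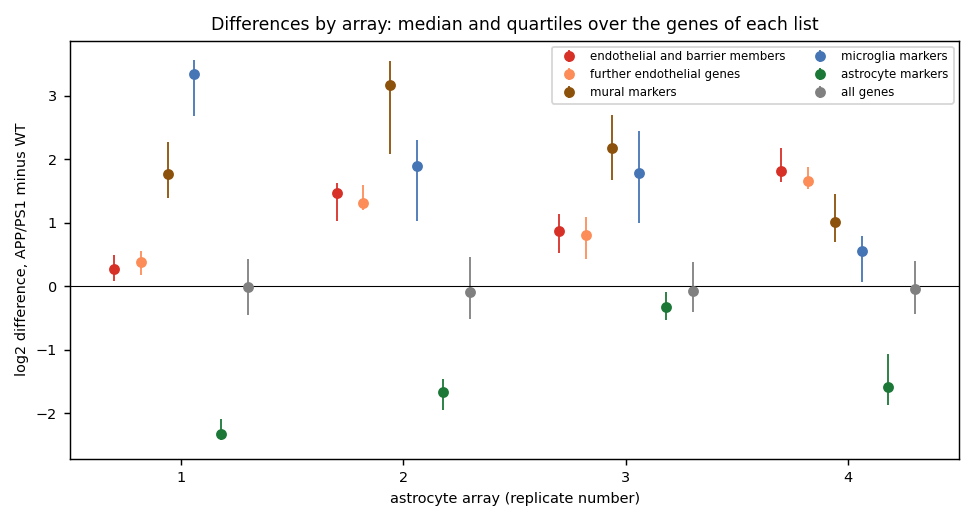
Median (points) and quartiles (bars) of APP/PS1 minus WT (log2, vertical axis) over the genes of each list, on each of the 4 astrocyte arrays. The 36 endothelial genes and the 18 further ones move together, from 0.28 and 0.38 on array 1 to 1.82 and 1.66 on array 4, while microglia markers fall from 3.33 to 0.55 and all genes stay near 0.

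Markers of other cells moved on the same arrays, in another order. The median difference of the 12 mural markers was 1.76, 3.16, 2.18 and 1.00 on arrays 1 to 4, with 9 of 12 higher (a median of 2.01). The 14 microglia markers gave 3.33, 1.89, 1.78 and 0.55, with 12 higher and 1 lower, and the 12 astrocyte markers gave -2.33, -1.66, -0.32 and -1.59, with 11 lower and 1 higher, Gfap (1.90), a filament protein of reactive astrocytes named here after its value was seen. The 1 microglia marker that fell was Siglech. Of the vascular fibroblast markers 2 of 7 rose, and of the perivascular macrophage markers 2 of 7. Of the neuronal markers 1 of 9 rose and 2 fell, and of the oligodendrocyte markers 2 of 7 rose and 2 fell. Of the oligodendrocyte precursor markers 1 of 5 rose and 1 fell, and the 3 erythroid markers gave a median of 0.56. The precursor list shares Cspg4 with the mural list and Pdgfra with the fibroblast list. Array 4, with the largest endothelial difference, thus had the smallest microglial and mural ones, and array 1 the largest microglial and the smallest endothelial one. The part of these other cells in the endothelial result was not tested.

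The Y-linked gene Eif2s3y was higher in the APP/PS1 sample by 5.06 and 5.09 on astrocyte arrays 1 and 3 and differed by 0.92 and 0.31 on arrays 2 and 4. On microglia array 1 it was higher by 6.07 and on microglia array 7 by 2.74, and on the other 5 it differed by less than 1; arrays with a difference under 3 were taken as matched. On arrays 2 and 4 alone the median of the 36 genes was 1.63, with 25 called higher and 1 lower, a choice made after seeing the data. Over all 22457 genes tested there, 2168 were called higher and 2283 lower. The part of sex in the difference was not tested.

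In microglia samples 32 of the 36 genes did not pass the test. Called higher in APP/PS1 were 3 of 36, Sox7, Flt1 and Ctla2a, where 8.27% of all genes were called higher. Called lower was 1, Eng, where 11.4% were. The median difference of the 36 was 0.09, against -0.04 over all genes, with an SD of 1.12, and 28 of the 36 genes had a value on all 7 arrays. For 4 genes (those 3 and Cd34) every APP/PS1 value lay above every WT value and for Eng every one lay below, against 2.85% and 1.56% of all genes measured on all 7 arrays. Sox7 was compared on 5 arrays only, and for Cd34 the highest WT value was 14.002 and the lowest APP/PS1 value 14.004. On the same arrays 2 microglia markers rose and 7 of 14 fell, 6 of 7 perivascular macrophage markers fell (Pf4 and Cbr2 among them), and 1 of 12 mural markers rose. The largest difference of the mural list, 2.36, is also the largest of the oligodendrocyte precursor list, and Cspg4 is on both. Of the astrocyte markers 5 of 12 fell and 1 rose, and of the neuronal markers 5 of 9 fell. The microglia markers summed to between 19.63 and 19.96 in WT and 19.20 and 19.44 in APP/PS1 samples, the mural markers to between 9.47 and 11.13 and 10.56 and 11.41, and the part of these markers' cells in the result was not tested.

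Sox7, a SOXF factor, was not measured on microglia arrays 2 and 4. On arrays 1, 3, 5, 6 and 7 it was 3.53, 1.48, 3.20, 2.62 and 2.56 in WT and 8.30, 8.14, 7.72, 8.17 and 8.06 in APP/PS1 samples. The values were far apart on all 5 arrays, with a difference of 5.53 ± 0.34 (adjusted p = 3.01e-05), and the WT values lie near the low end of the table, where the background step, which no source used here states, could bear on them. The APP/PS1 microglia mean of 8.08 ± 0.22 (n = 5) was close to the 8.30 ± 0.29 (n = 4) of WT astrocytes for the same probe. The related Sox17 (0.29 ± 0.20, adjusted p = 0.373) and Sox18 (0.33 ± 0.21, adjusted p = 0.353) did not pass.

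Flt1, which monocytes and macrophages also make, ran from 7.65 through a median of 8.85 to 9.94 in WT and from 11.11 through 11.60 to 11.75 in APP/PS1 microglia. It was higher on 7 of 7 arrays, as were 11.3% of all genes measured on all, by 2.72 ± 0.21 (a 6.57-fold difference, adjusted p = 2.29e-05). Ctla2a ran from 6.11 through 7.84 to 8.22 in WT and from 9.03 through 9.41 to 10.52 in APP/PS1, higher on 7 of 7 arrays by 1.97 ± 0.16 (adjusted p = 3.64e-05). Eng, made by some macrophages too, ran from 10.45 through 10.70 to 10.96 in WT and from 9.64 through 10.07 to 10.24 in APP/PS1. It was lower on all 7 arrays, as were 15.1% of all genes, and fell by 0.75 on the log2 scale (SE 0.12, adjusted p = 0.00206). The microglia arrays lay on 2 slides: Flt1 differed by 2.78 and 2.65 within slides 1 and 2, Ctla2a by 1.92 and 2.00, Eng by -0.79 and -0.71, and Sox7 by 5.34 within slide 2. None of the 36 genes, and no gene of the table, was called within slide 2, which held 3 arrays (limma); at an unadjusted p under 0.05 it gave 11 higher and 4 lower of the 36, and 2343 higher and 2660 lower of all genes.

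**Figure D4:**
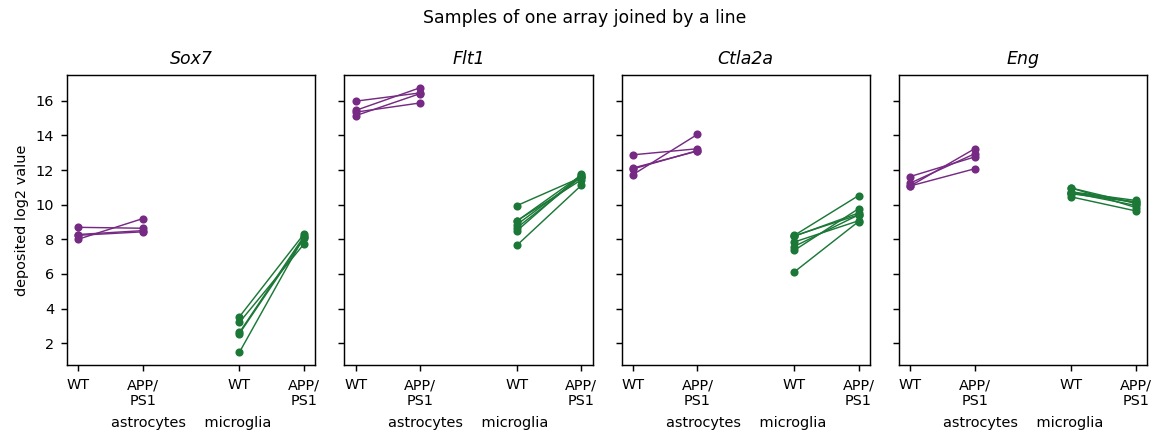
Deposited log2 value (vertical axis) of Sox7, Flt1, Ctla2a and Eng in WT and APP/PS1 samples of astrocytes (purple) and microglia (green), with a line joining the 2 samples of 1 array. Sox7 lies at 2.68 on average in WT and 8.08 in APP/PS1 microglia, Flt1 and Ctla2a climb in both cell types, and Eng climbs in astrocyte samples and falls in microglia.

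The other genes gave differences that did not pass in microglia. Cd34 went from a range of 13.28 to 14.00 in WT to 14.00 to 14.38 in APP/PS1, higher on 7 of 7 arrays by 0.62 ± 0.23 (adjusted p = 0.0995), and its second probe was called (0.94, adjusted p = 0.00585). The hallmark junction genes Cldn5 (0.11 ± 0.23), Cdh5 (0.07 ± 0.21) and Ocln (0.28 ± 0.18) did not pass, nor did Pecam1, which microglia also make (-0.33 ± 0.14), Fli1 (-0.33 ± 0.14, lower on 7 of 7 arrays) or Plvap (-0.31 ± 0.10, lower on 7 of 7). Erg was measured on 3 microglia arrays only. Ly6c1 was 13.10 in WT sample 3 against 9.17 to 10.26 in the other WT samples, and its difference on that array was -3.24. On the same array the median difference of the 7 perivascular macrophage markers was -1.77 and that of the 3 erythroid markers -2.93, and their part in this value was not tested.

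**Figure D5:**
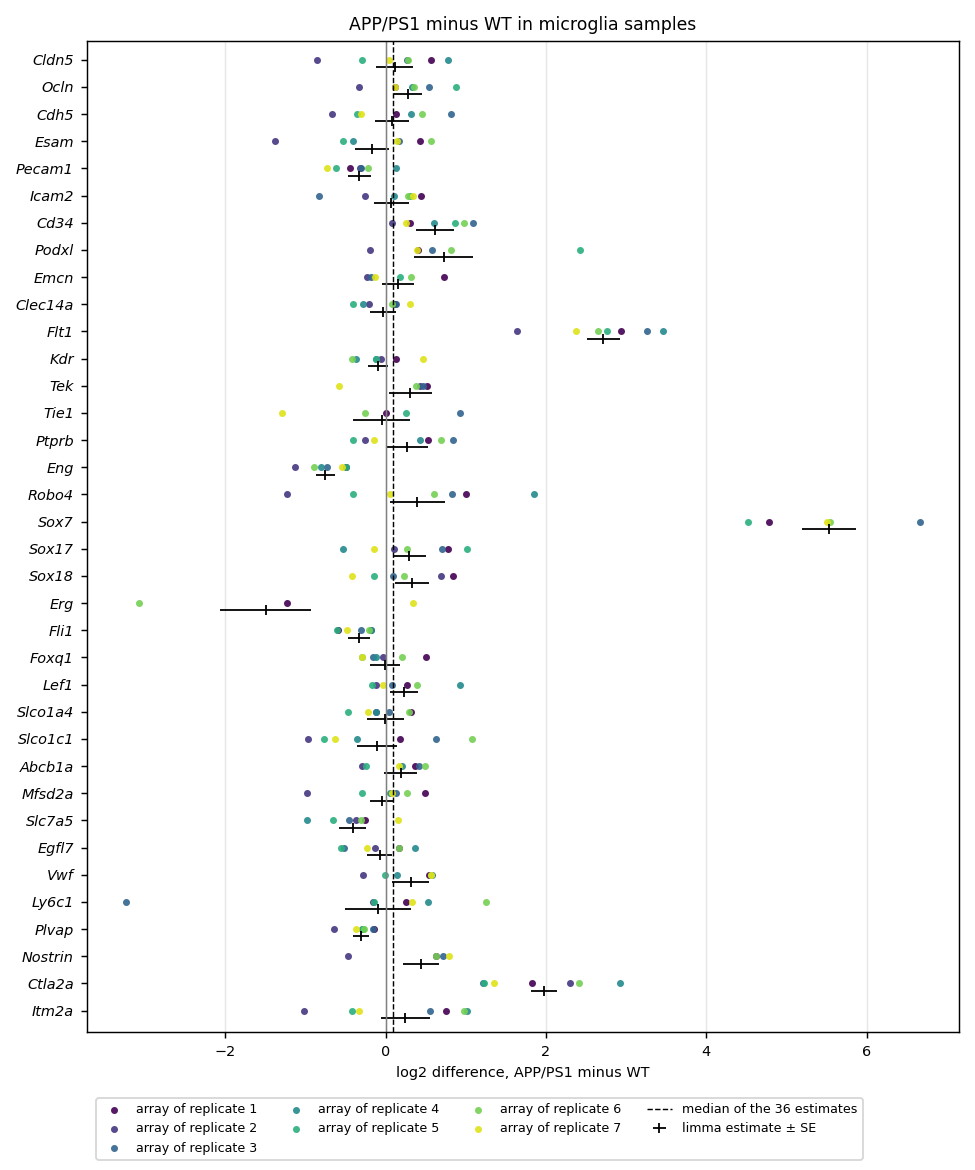
APP/PS1 minus WT (log2, horizontal axis) for each gene on each microglia array (coloured points), with the limma estimate and its SE in black and the median of the 36 estimates, 0.09, as a dashed line. Sox7, Flt1 and Ctla2a lie to the right on every array that measured them, Eng lies below 0 on all 7, and most others scatter around 0.

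The genotype difference itself was compared between the cell types as an interaction (astrocyte minus microglia). It was called higher in astrocytes for 13 of 36 genes and lower for 2, where 13.4% and 13.2% of all genes were called. Eng had the largest of the 13, 2.25 ± 0.20 (adjusted p = 9.73e-05), being the 1 gene called in opposite directions. Pecam1 (1.45 ± 0.23), Slco1a4 (1.42), Clec14a (1.40), Fli1 (1.34), Esam (1.34), Emcn (1.24), Slc7a5 (1.22), Cdh5 (1.20), Icam2 (1.19), Foxq1 (1.01), Egfl7 (0.91) and Kdr (0.62) followed. Sox7 (-5.14 ± 0.47) and Flt1 (-1.82 ± 0.34) differed the other way, and Cldn5 (0.91 ± 0.38, adjusted p = 0.113) and Ctla2a (-0.79 ± 0.27, adjusted p = 0.0548) did not pass. The count of 13 fell to 5 without astrocyte replicate 2, to 6 without astrocyte replicate 4 and to 4 without the array block. It rose to 20 on the arrays matched in Eif2s3y. Over all genes these settings gave 2324, 2702, 788 and 1945 higher, against 3004 in the main fit. The Kdr value of 0.62 is that of its brightest probe, and its call was lost in 12 of the alternatives run. The call of Foxq1 was lost in 9. The other 10 Kdr probes gave 1.48 to 1.57 in astrocyte samples and -0.16 to -0.0006 in microglia, and their interaction was not tested.

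The ligands and receptors that act on these vessels were followed in a separate list of vascular growth factors, in which 9 of 14 rose and 3 fell in astrocyte samples and 3 rose in microglia. Vegfa, the main vessel growth factor and ligand of Flt1 and Kdr, fell in astrocyte samples by 1.38 on the log2 scale (SE 0.13) and rose in microglia by 2.11 ± 0.10 (adjusted p = 2.11e-06), from a range of 8.47 to 9.80 in WT to 10.31 to 11.85 in APP/PS1. Neither pair of groups overlapped, and the interaction was -3.49 (adjusted p = 1.44e-05). The VEGF co-receptor Nrp1 rose in microglia by 1.36 ± 0.12 and Nrp2 rose in astrocyte samples by 1.20 ± 0.21. Pgf, a ligand of Flt1, rose in astrocyte samples by 1.29 ± 0.19, and the sphingosine phosphate receptor S1pr1, which is also on the astrocyte marker list, fell there by 1.25 on the log2 scale. On the same arrays the 12 astrocyte markers had a median difference of -1.37 and the 12 mural markers one of 2.01. The part of these markers' cells in the changes of Vegfa and Pgf was not tested.

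Of 13 measured genes of Wnt signalling at the barrier, 7 rose and 3 fell in astrocyte samples. The ones that fell are ligands: Wnt7a fell by 1.38, Wnt7b by 1.20 and Ndp, the norrin ligand, by 1.70 on the log2 scale. These 3 were higher in WT astrocytes than in WT microglia, by 5.48, 4.92 and 8.93. On the same arrays the 12 astrocyte markers had a median difference of -1.37, and the part of astrocyte content in these falls was not tested. The 7 that rose are receptors, partners and downstream genes, among them the Wnt7 co-receptor Adgra2 at 1.39 ± 0.21, beta-catenin (Ctnnb1) at 1.27 ± 0.17 and the receptor Fzd4 at 0.52 ± 0.10. The receptor Lrp5 (0.01 ± 0.10), the Fzd4 partner Tspan12 (0.30 ± 0.35) and the downstream target Axin2 (0.04 ± 0.21), named after their values were seen, did not pass. In microglia 2 fell, Fzd4 by 0.57 and Lrp6 by 0.39 on the log2 scale.

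Of 11 junction partners, 4 rose and 1 fell in astrocyte samples: the risers were the adhesion molecule F11r (1.41 ± 0.14), Ctnna1 (0.84 ± 0.12), the tricellular junction protein Marveld2 (0.92 ± 0.17) and the angulin Lsr (1.30 ± 0.30). In microglia the junction scaffold Cgn rose by 3.67 ± 0.37 (adjusted p = 0.000216) and Tjp1 fell by 0.77 on the log2 scale. Of 13 other transporters, 8 rose and 2 fell in astrocyte samples, with the taurine carrier Slc6a6 at 1.74 ± 0.31, the efflux pump Abcg2 at 1.14 ± 0.25, the transferrin receptor Tfrc at 0.60 ± 0.13 and Slc3a2, the partner chain of Slc7a5, at -0.60 ± 0.12. The glucose carrier Slc2a1 did not pass in astrocyte samples (0.32 ± 0.22, adjusted p = 0.311) and rose in microglia by 2.30 ± 0.17, from a range of 10.54 to 11.70 to 12.95 to 13.77. The iron exporter Slc40a1 fell in microglia by 1.09 on the log2 scale.

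Genes of particular vessel segments were listed too. Of 8 arterial genes 6 rose in astrocyte samples, led by the connexin Gja4 (2.48 ± 0.31, adjusted p = 0.000365), with Sema3g at 1.30 ± 0.24, Stmn2, also a neuronal marker, at 1.08 ± 0.21 and Gja5 at 0.96 ± 0.19. The 12 mural markers had a median difference of 2.01 on the same arrays, and the part of mural cells in the arterial changes was not tested. Of 8 venous and activation genes 2 rose and 1 fell: the venous factor Nr2f2 rose by 1.64 ± 0.28, the adhesion molecule Icam1 rose by 1.31 ± 0.19, and Vcam1 fell by 1.24 on the log2 scale. Selp gave -0.25 ± 0.14, which did not pass. Among the 18 further endothelial genes, Ecscr rose by 1.06 ± 0.15 in astrocyte samples and fell by 1.15 on the log2 scale in microglia, Ets1 rose by 1.16 ± 0.17 in astrocyte samples, Bsg by 1.17 ± 0.18 and Ets2 by 1.35 ± 0.22, and Ets2 rose by 1.13 ± 0.16 in microglia.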

How the data were processed

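The deposited table holds single-channel log2 values of 43020 probes in 22 samples, 11 two-colour arrays on 3 slides, each array with an APP/PS1 and a WT sample. The submitters' processing notes name limma, with no version. How the authors corrected the background and normalized the values is not given in the sources used here. Sample medians were 6.24 to 6.26, which hides any shift of all genes. Probes left blank numbered 2249 to 10975 per microglia array and 151 to 593 per astrocyte array, always in both channels. A gene symbol was given for 33026 probes, 0 had several and 9994 were unnamed. The identifiers of 32438 probes matched the RefSeq table.

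Genotype effects were fitted with limma 3.58.1 in R 4.3.3 on the 22 samples together, with terms for array (the replicate block), dye and genotype within each cell type, so both cell types shared 1 spread per gene. The cell types were compared with array as a random block (correlation 0.64). All tests were two-sided, p-values were adjusted over all genes (Benjamini-Hochberg) and the threshold was 0.05. The genotype and interaction fits were tested on simulated data with 1 spread per gene for both cell types, which cannot test that sharing. The fit between cell types was not tested in this way. Fold changes are 2 to the power of the log2 difference. Replicates are biological per the series' design text. The number of arrays limits the precision.

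The pairing comes from the shared array. Same-array samples, as deviations from their group means, had an r across genes of 0.27 to 0.49 on the microglia arrays, and of 0.00 to 0.32 for astrocytes.

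The members and all gene lists were chosen with earlier results of these data known. Named were all members, from each pathway list up to 4 genes of smallest adjusted p in astrocytes and up to 2 in microglia, and the 2 brightest of each marker list where a result turns on them. Alternatives were the block, dye term, quantile normalization, probe averaging, filters on low or missing values, each cell type alone, each slide, and leaving out each array; the closing section gives their effect. Promoters are from RefSeq, GRCm38.p6.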

Additional observations from a re-analysis of the deposited data

Results flagged for a closer look

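Among 213 groups of values tested for a sample far from the rest, 15 had one, where chance gives about 1 in 20. WT astrocyte sample 1 stood apart for Robo4 (13.34), Fli1 (10.08), Itm2a (15.18), all above the other 3, and for Mfsd2a (13.19), below them. APP/PS1 astrocyte sample 4 was high for Lef1 (11.89) and Ctla2a (14.06), and APP/PS1 astrocyte sample 3 was low for Esam (11.83). WT microglia sample 4 was low for Cldn5 (7.30), Abcb1a (4.77) and Ctla2a (6.11), and WT microglia sample 3 was high for Ly6c1 (13.10). Of the array differences, that of Tek was low on astrocyte array 1 (0.11) and on microglia array 7 (-0.59), that of Nostrin on microglia array 2 (-0.48) and that of Ly6c1 on microglia array 3 (-3.24).

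The genotype difference was larger in astrocyte than in microglia samples by the interaction test for Cdh5 (1.20), Esam (1.34), Pecam1 (1.45), Icam2 (1.19), Emcn (1.24), Clec14a (1.40), Kdr (brightest probe, 0.62), Eng (2.25), Fli1 (1.34), Foxq1 (1.01), Slco1a4 (1.42), Slc7a5 (1.22) and Egfl7 (0.91). It was smaller for Flt1 (-1.82) and Sox7 (-5.14).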

How the results depend on the processing

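In astrocyte samples the count of 29 members higher became 3 with each cell type fitted alone and 13 with no replicate block, and lay between 14 and 30 when 1 array was left out. Over all genes, 1476 of 22461 were called higher with each cell type fitted alone and 1387 of 22483 with no replicate block. The count of 2 lower became 1 with array as a random block, with all probes averaged, with quantile normalization and on the arrays matched in Eif2s3y, 0 with each cell type alone and with no block, and 1 to 2 with an array left out. Over all genes 4004 of 22483 were called lower with array as a random block, 3793 with all probes averaged and 3984 with quantile normalization. The arrays matched in Eif2s3y gave 2283 of 22457, each cell type alone 1343 of 22461 and no block 1060 of 22483. In microglia the count of 3 higher became 0 within slide 2 (3 to 4 with an array left out), and the count of 1 lower became 3 with array as a random block, 4 fitted alone, 0 within slide 2, 2 on the arrays matched in Eif2s3y, 2 with genes above the median gene, 2 with genes measured on every array, 2 with quantile normalization and 1 to 3 with an array left out. Over all genes 2498 of 22386 were called lower with array as a random block and 2872 of 21487 fitted alone. The arrays matched in Eif2s3y gave 1857 of 22234, quantile normalization 2452 of 22386 and slide 2 alone 0 of 20721. Genes above the median gene gave 2853 of 11240, and genes measured on every array 2866 of 16310. The interaction count of 13 higher became 20 with array as a random block, 4 with no replicate block, 20 on the arrays matched in Eif2s3y and 5 to 19 with an array left out, and that of 2 lower became 1 on the arrays matched in Eif2s3y (2 to 3 with an array left out). Over all genes 3158 of 22392 were called higher with array as a random block and 788 of 22392 with no replicate block. The arrays matched in Eif2s3y gave 1945 of 22259 higher and 1920 lower. Between WT cell types the count of 2 lower became 1 with all probes averaged and 1 with slide as a random block, and the count of 31 higher stayed between 30 and 31 with an array left out. It became 29 with slide as a random block, 33 with all probes averaged and 30 with quantile normalization. Over all genes these settings gave 4875 of 22395, 7732 of 22407 and 7693 of 22395 higher. The Eng call between cell types was lost in 8 settings. The differences of Kdr (3.43) and Slc7a5 (1.09) between cell types changed sign with all probes averaged. So did those of 2 further genes, which were not called either way. Fits on fewer samples have fewer degrees of freedom, and fits on fewer genes adjust p over a smaller set of genes. The cause of the moves was not tested. The selection of arrays on Eif2s3y was chosen after seeing the data.

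Over single genes and settings, 596 of the astrocyte values kept their direction and side of the threshold, 105 lost the call and 4 gained it; in microglia these numbers were 715, 4 and 19, and for the interaction 571, 51 and 45. A further 37 microglia, 3 interaction and 1 astrocyte values, none called under either setting, changed sign. Sox7 had no value within slide 1, where it was measured on 2 arrays of 1 dye order. With 4 astrocyte arrays, differences of array medians from 0.28 to 1.82 limit what the mean can show, and genes with blank values in microglia, such as Erg on 3 arrays, rest on fewer samples.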
